A study of Mus musculus with 6 samples.

Results

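The 10 genes described here encode G protein-coupled receptors through which hormones, nerves and fatty acids raise or lower insulin release from the beta cell: Glp1r, Gipr, Gcgr, Ffar1, Gpr119, Chrm3, Sstr2, Sstr3, Sstr5 and Galr1. They were chosen by symbol from the 22298 genes of the expression table, and each symbol was found. RNA was sequenced from MIN6, a mouse insulinoma cell line that makes and secretes insulin, in 3 control samples and in 3 samples labelled as chronic epinephrine. Both groups are the same line in the same medium, and they differ by epinephrine alone as far as the labels and methods say. In the exposure scheme of the study, 100 nM epinephrine was present for 3 days, withdrawal lasted a further 2 days, and the day of RNA collection for sequencing is not given in the sources used here. The comparison asks whether the mRNA of these receptors differed after chronic exposure to epinephrine. A cell line is 1 transformed population and not an islet, in which neighbouring alpha and delta cells supply glucagon and somatostatin to these receptors.

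Receptors of this class act through 3 kinds of G protein. Receptors coupled to Gs activate adenylyl cyclase and raise cAMP, which amplifies insulin release at raised glucose. Among them are the receptors of the incretins GLP-1 (Glp1r) and GIP (Gipr), the glucagon receptor (Gcgr) and the lipid amide receptor Gpr119. Receptors coupled to Gq activate phospholipase C and release calcium from the endoplasmic reticulum, as do the long-chain fatty acid receptor Ffar1 (GPR40) and the muscarinic acetylcholine receptor Chrm3. Receptors coupled to Gi and Go lower cAMP, open potassium channels and restrain exocytosis, as do the somatostatin receptors Sstr2, Sstr3 and Sstr5 and the galanin receptor Galr1. The α2A-adrenergic receptor, on which epinephrine acts in beta cells, belongs to the same Gi and Go class as the somatostatin and galanin receptors.

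Total expected counts were 15017065 to 18127171 per sample. Control 1 stood apart: across genes, its log2 levels correlated at 0.981 and 0.980 with controls 2 and 3, which correlated with each other at 0.995, and epinephrine samples correlated with each other at 0.994 to 0.995. No pair of samples held identical values. Hepatocyte genes were present in controls 2 and 3, where Alb (albumin) stood at 33.9 and 82.3 CPM (counts scaled to a library of 1000000), against 0.194 in control 1 and 0.297 to 0.448 in the epinephrine samples. The defining beta-cell genes were all detected (16 of 16). Because control 1 stood apart, the values of the receptors are also given without it. The fit without control 1 keeps as controls only samples 2 and 3, in which the hepatocyte genes were present. The part of those genes in its values was not tested.

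By level per transcript length (FPKM, fragments scaled to kilobases of transcript and to the sample total), the receptors of MIN6 cells spanned from near the top of the transcriptome to almost nothing. In the 3 controls Glp1r stood at 152, 113 and 105 FPKM and Ffar1 at 108, 82.4 and 80.3 FPKM. Their ranges overlapped in the control group, although Glp1r lay above Ffar1 within every sample of both groups. After epinephrine the ranges did not overlap, with Glp1r at 88.0, 89.4 and 89.6 FPKM and Ffar1 at 64.7, 64.3 and 62.8 FPKM. Gipr followed at 29.9 to 33.8 FPKM in controls and 32.2 to 35.6 after epinephrine. Sstr3, which sits largely on the primary cilium, had mean levels of 22.8 and 22.3 FPKM in the 2 groups. Chrm3 (14.4 to 19.0 FPKM), Galr1 (9.74 to 10.8) and Sstr5 (6.47 to 9.59) came next in the controls without overlap between neighbours. After epinephrine the ranges of Chrm3 (11.6 to 13.2 FPKM) and Galr1 (12.0 to 13.0 FPKM) overlapped. The order of these 7 receptors by group mean was the same in both groups.

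**Figure D1:**
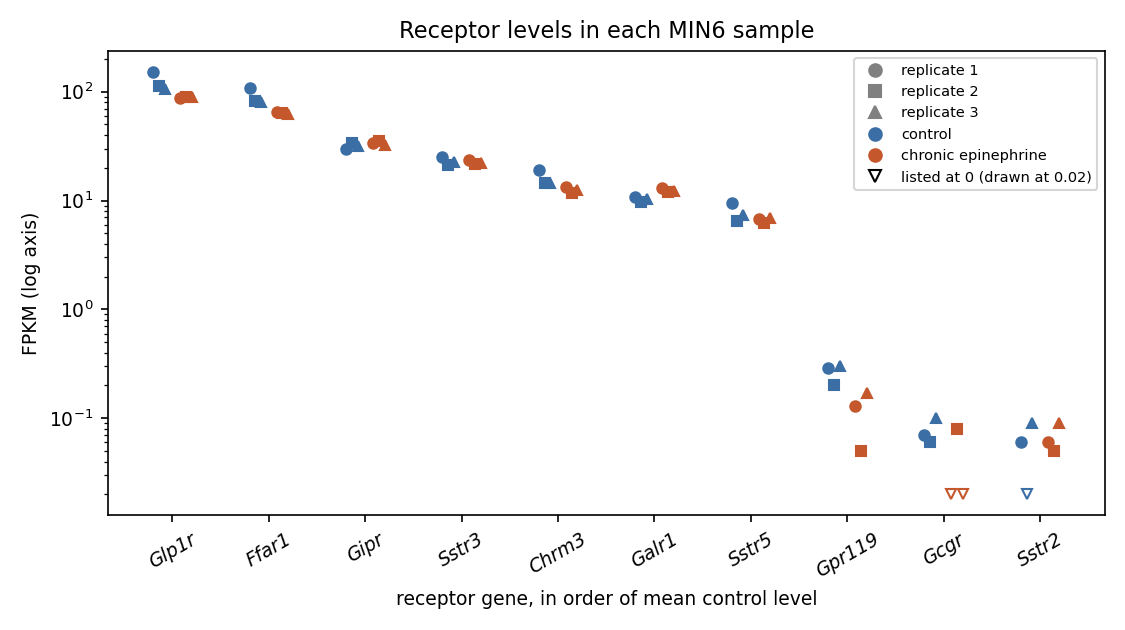
Level of each receptor per transcript length (FPKM, log axis) in the 3 control and 3 epinephrine samples, 1 point per sample, with receptors ordered by their control mean. Glp1r and Ffar1 lie highest, and Gpr119, Gcgr and Sstr2 lie at the bottom of the axis, where a few counts set each point.

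Averaged over the samples, Glp1r lay at the 97.6th percentile of all 22298 genes by FPKM, Ffar1 at the 96.4th and Sstr5, the lowest of the 7, at the 65.1st. The remaining 3 receptors were near the limit of detection. Gpr119 had 10, 8 and 11 expected counts in the controls and 5, 2 and 6 after epinephrine. Gcgr had 2, 2 and 3 counts against 0, 3 and 0, and Sstr2 had 2, 0 and 3 against 2, 2 and 3. Since 3 counts, the limit that a count of 0 allows, correspond to 0.168 to 0.198 CPM at these depths, Gcgr and Sstr2 cannot be told from absent and no change in them was detectable. Gcgr is also a hepatocyte receptor. Its counts were 2 and 3 in controls 2 and 3, the samples with hepatocyte genes, and also 2 in control 1 and 3 in epinephrine sample 2. Of the 3 somatostatin receptors described here, Sstr3 and Sstr5 thus gave nearly all counts. Of the receptors of glucagon, GLP-1 and GIP, Glp1r and Gipr did.

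The comparison of chronic epinephrine with control was fitted over the 12747 genes that passed a filter on low counts, 7 of the 10 receptors among them. Levels are given below as CPM normalized by the TMM method, and FDR stands for the p-value of edgeR's quasi-likelihood test after Benjamini-Hochberg adjustment over all tested genes. At an FDR under 0.05, 335 genes were called (2.63% of those tested, with 2.02% higher and 0.612% lower after epinephrine) and 0 of the 7 receptors were. At an unadjusted p under 0.05 stood 3 of the 7 receptors, Glp1r, Ffar1 and Galr1, against 17.1% of all genes. The Wald test of DESeq2 called 2 of them, Glp1r and Ffar1, where it called 5.07% of genes. Of the 7, 3 had a higher and 4 a lower mean after epinephrine, with a median log2 difference of -0.20 beside -0.00 over all tested genes. Without control 1 the median of the 7 was -0.04, again with 3 higher and 4 lower. The study describes the samples of a group as independent. An exact permutation test of 3 samples against 3 allows no p under 0.1.

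Glp1r mRNA was lower in every epinephrine sample than in any control. This gene, on chr17:30901817-30940791 (GRCm38, plus strand, ENSMUSG00000024027), encodes the GLP-1 receptor, the target of the incretin drugs. Controls 1, 2 and 3 stood at 858, 653 and 613 CPM, and the epinephrine samples at 514, 528 and 525 CPM. Control 1 was the highest by far, the other 2 controls lay close together, and the epinephrine samples lay closer still. The mean was 708 ± 132 (SD, n = 3) in controls and 523 ± 7.26 after epinephrine, a difference of -26.2%. The log2 difference of -0.44 (SE 0.13, 95% interval -0.73 to -0.15) did not pass the threshold (FDR 0.126, edgeR; exact permutation p = 0.1). Without control 1 the difference was smaller, -0.28 with a smaller standard error of 0.05, and passed the threshold (edgeR FDR 9.19e-05). That fit called 9.46% of all tested genes lower. With any other sample left out, Glp1r did not pass (edgeR FDR 0.110 to 0.415).

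Gipr, the receptor of the incretin GIP, had a slightly higher mean after epinephrine, within the spread of the samples. It lies on chr7:19156061-19166127 (minus strand, ENSMUSG00000030406) and stood at 67.5, 77.7 and 70.7 CPM in controls against 80.7, 83.8 and 77.5 CPM after epinephrine. The groups overlapped by a narrow margin, since control 2 lay above epinephrine sample 3. The means were 71.9 ± 5.22 and 80.6 ± 3.14 CPM (SD, n = 3), with a log2 difference of 0.16 (SE 0.09, 95% interval -0.03 to 0.36, edgeR FDR 0.381). Its interval and that of Glp1r did not meet, but neither receptor was called and the fit tested no difference between them. Without control 1 the log2 difference of Gipr was 0.12 (SE 0.06, edgeR FDR 0.168).

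Gpr119, whose ligands are oleoylethanolamide and related lipids and which also couples to Gs, gave 29 counts in all controls together and 13 in all epinephrine samples. It lies on chrX:48667979-48674478 (ENSMUSG00000051209). Its CPM were 0.647, 0.457 and 0.688 in controls and 0.297, 0.112 and 0.397 after epinephrine, with no overlap (exact permutation p = 0.1). The log2 ratio of the means was -1.15, and with no filter on low counts the edgeR fit gave -1.16 (SE 0.59, FDR 0.416). It was -0.77 without epinephrine sample 2 and -1.52 without epinephrine sample 3. With at most 11 counts in a sample, its difference was not called by any of the fits that kept it. Gcgr (chr11:120530699-120538986, ENSMUSG00000025127), the receptor through which glucagon raises cAMP, is given above by its counts alone.

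**Figure D2:**
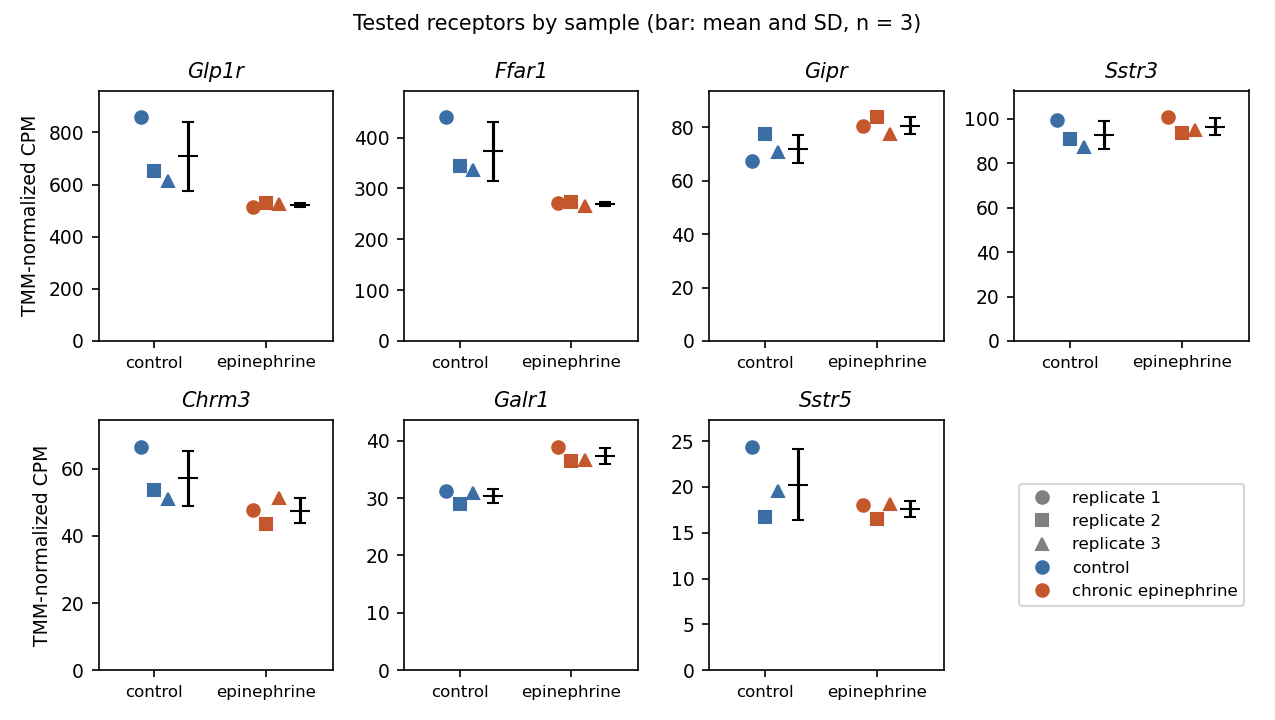
TMM-normalized CPM of the 7 receptors that passed the filter, 1 panel per receptor with its own axis, in controls 1 to 3 and epinephrine samples 1 to 3. Glp1r and Ffar1 lie lower and Galr1 higher in all 3 epinephrine samples, and control 1 is the highest control for Glp1r, Ffar1, Chrm3, Sstr3, Sstr5 and, by less than 1 CPM, Galr1.

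Ffar1, through which long-chain fatty acids amplify glucose-stimulated insulin release, was, like Glp1r, lower in every epinephrine sample than in any control. Ffar1 is on chr7:30857390-30861564 (minus strand, ENSMUSG00000044453). Its levels were 440, 343 and 337 CPM in controls and 271, 273 and 265 CPM after epinephrine. Again all epinephrine samples lay below all controls and close together, and control 1 lay above the rest. The means of 373 ± 57.7 and 270 ± 4.35 CPM (SD, n = 3) differed by -27.8%. The log2 difference was -0.47 (SE 0.11, 95% interval -0.73 to -0.21), with an FDR of 0.0789 by edgeR and an exact permutation p of 0.1. Without control 1 it was -0.34 (SE 0.05, edgeR FDR 7.10e-06), in a fit that called 9.46% of all tested genes lower. With any other sample left out, Ffar1 did not pass the threshold (edgeR FDR 0.0956 to 0.330). Of the 50-base windows of its transcripts, 0.778% occur in other genes.

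Chrm3, the receptor through which the vagus nerve acts on beta cells, overlapped between the groups. It spans chr13:9875486-10360847 (minus strand, ENSMUSG00000046159). Controls stood at 66.6, 53.7 and 51.1 CPM and epinephrine samples at 47.6, 43.7 and 51.2 CPM. Only epinephrine sample 3 reached the range of the controls, just above control 3. The log2 difference was -0.27 (SE 0.12, 95% interval -0.54 to 0.01, edgeR FDR 0.306) and was -0.14 without control 1 (FDR 0.145).

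Galr1 was the only one of the inhibitory receptors whose groups did not overlap, and it lay higher after epinephrine. Galanin, its ligand, is released from sympathetic nerve endings in the islet and restrains insulin release. The gene lies on chr18:82392380-82406777 (minus strand, ENSMUSG00000024553). Controls stood at 31.3, 29.0 and 30.9 CPM and epinephrine samples at 39.0, 36.5 and 36.7 CPM, a clear gap between the groups with control 1 among the others. The means were 30.4 ± 1.19 and 37.4 ± 1.38 CPM (SD, n = 3), a difference of 23.0%. The log2 difference was 0.30 (SE 0.08, 95% interval 0.11 to 0.49, edgeR FDR 0.112, exact permutation p = 0.1). It was 0.32 without control 1 (SE 0.08, edgeR FDR 0.00253), in a fit that called 12.1% of all tested genes higher. With any other sample left out, Galr1 did not pass the threshold (edgeR FDR 0.194 to 0.423).

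The somatostatin receptors did not differ beyond their spread. Sstr3 (chr15:78537008-78544685, minus strand, ENSMUSG00000044933) stood at 99.7, 90.8 and 87.4 CPM in controls and 101, 93.6 and 95.1 CPM after epinephrine. Its samples were interleaved, and its log2 difference of 0.06 (SE 0.09, 95% interval -0.14 to 0.26, edgeR FDR 0.772) was 0.11 without control 1 (FDR 0.160), lay at 0.02 to 0.08 when any other sample was left out, and turned to -0.03 when FPKM values were tested in place of counts. Sstr5 (chr17:25489875-25497288, minus strand, ENSMUSG00000050824) stood at 24.4, 16.7 and 19.5 CPM against 18.0, 16.5 and 18.2 CPM. The log2 difference of -0.20 (SE 0.14, 95% interval -0.53 to 0.13, FDR 0.521) was -0.04 without control 1 (FDR 0.809) and -0.33 without control 2. Sstr2 (chr11:113619342-113626028, ENSMUSG00000047904) is given above by its counts.

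Counted over the 7 receptors, the groups did not overlap for 2 that were lower (Glp1r and Ffar1) and 1 that was higher (Galr1), and over all tested genes for 13.0% and 14.3%. Without control 1, edgeR called the same 3 receptors, 2 lower and 1 higher, where it called 9.46% of genes lower and 12.1% higher. A correction for the GC content and length of transcripts, which was added once the data had been seen, called these 3 as well, where it called 10.4% of genes, at log2 differences of -0.37 for Glp1r, -0.43 for Ffar1 and 0.28 for Galr1. Control 1 exceeded the mean of controls 2 and 3 by 0.44 for Glp1r, 0.42 for Sstr5, 0.37 for Ffar1 and 0.34 for Chrm3 on the log2 scale. Among all tested genes these gaps lay between the 80.7th and 86.4th percentiles. For Sstr3 the gap was 0.16, for Galr1 0.06 and for Gipr -0.13. The 4 receptors with a lower mean after epinephrine were thus the 4 with the largest gap in control 1, which itself enters the control mean.

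**Figure D3:**
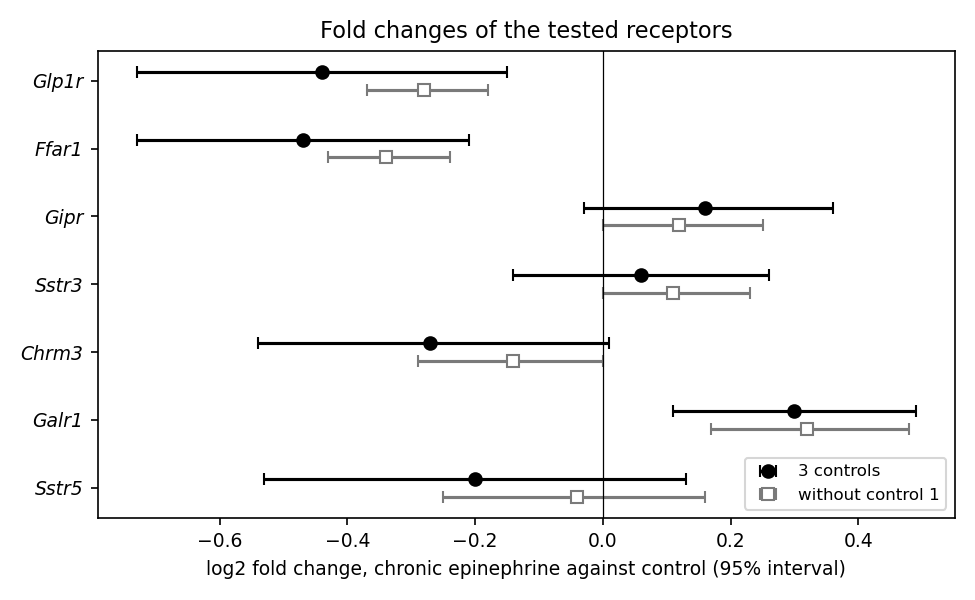
Log2 difference of chronic epinephrine from control for the 7 tested receptors, with all 3 controls and without control 1 (points with 95% intervals from the edgeR fit). Without control 1 the intervals of Glp1r and Ffar1 move towards 0 and narrow, that of Galr1 stays above 0, those of Gipr, Chrm3 and Sstr3 end near 0, and that of Sstr5 spans 0.

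The promoters of Glp1r and Ffar1 are shown because these 2 receptors were the most abundant of the 10. Promoter sequences were taken from RefSeq (GRCm38.p6), 250 bases before to 50 bases after the start site, and were found for 7 of the 10 receptors, not for Gipr, Sstr5 or Galr1. Both are printed 5′ to 3′ on the strand of the gene, Glp1r from chr17:30901617-30901916 (plus strand) and Ffar1 from chr7:30861421-30861720 (minus strand), with capitals for the matches to the motifs searched.
Glp1r: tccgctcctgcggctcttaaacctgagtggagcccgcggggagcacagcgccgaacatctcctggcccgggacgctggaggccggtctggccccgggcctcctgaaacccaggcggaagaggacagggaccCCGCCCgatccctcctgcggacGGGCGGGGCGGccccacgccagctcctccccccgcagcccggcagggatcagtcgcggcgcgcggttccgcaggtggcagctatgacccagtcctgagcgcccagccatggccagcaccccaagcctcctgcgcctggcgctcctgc
Ffar1: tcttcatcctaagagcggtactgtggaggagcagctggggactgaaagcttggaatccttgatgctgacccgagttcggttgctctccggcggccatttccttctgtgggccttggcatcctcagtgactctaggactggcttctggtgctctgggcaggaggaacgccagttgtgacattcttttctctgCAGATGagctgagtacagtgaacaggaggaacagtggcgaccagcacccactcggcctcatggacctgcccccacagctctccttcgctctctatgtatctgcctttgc

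The motifs were searched on both strands. They were the cAMP response element TGACGTCA and its core TGACG, which it contains, the GC box GGGCGG bound by Sp1-type factors, the E-box CAGATG bound by NeuroD1, and the homeodomain core TAATTA bound by Pdx1. In the Glp1r promoter, where 73.7% of bases are G or C, the GC box matched 3 times, at 119, 97 and 92 bases before the start site, and the last 2 of these matches overlap by 1 base. In the Ffar1 promoter, where 56.3% of bases are G or C, the E-box matched once, 59 bases before the start site. These are the start sites of RefSeq, and the GENCODE gene begins 94 bases farther upstream for Ffar1 and 50 bases farther upstream for Glp1r. The E-box of Ffar1 thus lies inside the GENCODE transcript, and the 3 GC boxes of Glp1r lie upstream of both starts. Neither window held the cAMP response element or its core. Of 32851 promoters of the same length, 35.7% held the GC box, 17.2% the E-box, 20.8% the TGACG core, 5.29% the homeodomain core and 1.79% the whole cAMP response element. Among the promoters of the 7 receptors the whole element was found in that of Sstr2, 58 bases before the start site, whose transcript was almost undetected in these cells. A match of letters is a description and not a site of binding.

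Beyond the 10 receptors, lists of the signalling genes around them held 166 genes, of which 113 were tested. The lists were chosen with earlier results of these data known, so the shares called in them are a description and not independent evidence. At an FDR under 0.05 edgeR called 10 higher (8.85%, against 2.02% of all tested genes) and 2 lower (1.77%, against 0.612%). With all controls, 73 of the 113 had a lower mean (64.6%, against 50.5% of all genes) and the median log2 difference was -0.09. Without control 1 that excess of lower means was gone, with 58 higher and 55 lower and a median of 0.01. The medians of the single lists then lay between -0.12 and 0.07. That fit called 19 of the listed genes higher and 18 lower, where it called 12.1% of all tested genes higher and 9.46% lower. The same shares of all genes apply to each count without control 1 given below for a single list. Of the 12 calls made with all controls, all held without control 1. Only that of Gcg held when each of the other 5 samples was left out in turn. Of 71 other receptors in the lists 32 were tested, with 3 called higher (9.38%) and 1 lower (3.13%), and without control 1 with 7 called in each direction.

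Other receptors coupled to Gs (15 in the list, 7 tested) held 2 calls, both higher, and a median log2 difference of -0.19, and without control 1 they held 2 calls higher and 2 lower. Vipr2, a receptor of the neuropeptides VIP and PACAP that potentiates insulin release, rose from 6.01 ± 0.672 to 11.7 ± 0.319 CPM (SD, n = 3), a log2 difference of 0.96 (SE 0.13, edgeR FDR 0.00751). The more abundant Vipr1 of the same list went the other way without a call. It stood at 126, 104 and 105 CPM in controls and 91.1, 88.0 and 96.5 CPM after epinephrine (log2 difference -0.28, SE 0.10, edgeR FDR 0.203). Gpr3, a receptor active without a ligand, rose from 2.28 ± 0.471 to 4.92 ± 1.02 CPM (log2 difference 1.11, SE 0.23, edgeR FDR 0.0428). Other receptors coupled to Gq (25 listed, 13 tested, median -0.00) held 4 calls higher and 1 lower without control 1. With all controls they held 1 call, Cckbr, the gastrin and cholecystokinin receptor, which rose from 1.76 ± 0.110 to 4.91 ± 0.425 CPM (log2 difference 1.48, SE 0.18, FDR 0.00543). Vipr2, Gpr3 and Cckbr each remained far below Glp1r and Ffar1 in CPM in every sample.

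Other receptors coupled to Gi and Go (31 listed, 12 tested, median -0.19) held 1 call, which was lower, and without control 1 they held 1 call higher and 4 lower. This was Ffar3, a short-chain fatty acid receptor that lies next to Ffar1 on chr7:30854330-30856178, 1211 bases away and on the same strand. It fell from 32.7, 29.2 and 31.2 CPM in controls to 19.7, 21.2 and 18.9 CPM after epinephrine, a log2 difference of -0.64 (SE 0.10, edgeR FDR 0.0129). Its controls lay close together, control 1 included. The other fatty acid receptors were looked up after these values were seen. Ffar2, 33614 bases from Ffar1 on chromosome 7, lay higher in all epinephrine samples (16.1, 15.6 and 16.0 CPM against 13.3, 13.7 and 14.1), with a log2 difference of 0.22 (SE 0.10, edgeR FDR 0.300). Ffar4, the long-chain fatty acid receptor on chromosome 19, stood at 4.59 ± 0.222 and 2.59 ± 0.397 CPM (SD, n = 3), with a log2 difference of -0.82 (SE 0.18, edgeR FDR 0.0532). No difference between the fatty acid receptors was tested. Among the 12 tested receptors of the Gi and Go list, the groups did not overlap for 4 that were lower and 0 that were higher. Over all tested genes these shares were 13.0% and 14.3%. Adra2a, the gene of the α2A-adrenergic receptor, was among the 4. It stood at 394, 255 and 265 CPM in controls and 223, 226 and 233 CPM after epinephrine (log2 difference -0.42, SE 0.16, edgeR FDR 0.221).

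Downstream of the receptors, the Gs and cAMP list (28 genes, 24 tested, median -0.14) held 3 calls, all higher, and without control 1 it held 5 calls higher and 4 lower. Prkar1a, the regulatory subunit that holds protein kinase A inactive until cAMP binds, rose from 1129 ± 33.8 to 1638 ± 42.5 CPM (SD, n = 3; log2 difference 0.54, SE 0.08, edgeR FDR 0.0108). Of the phosphodiesterases, which break down cyclic nucleotides, Pde1c rose from 154 ± 9.34 to 211 ± 2.59 CPM (log2 difference 0.45, SE 0.08, edgeR FDR 0.0271) and Pde10a from 50.1 ± 4.05 to 69.1 ± 3.08 CPM (0.46, SE 0.09, FDR 0.0374). The Gi and Go list (13 genes, 11 tested, median -0.06) held 1 call, the G protein subunit Gnai1, which fell from 26.8 ± 0.518 to 19.9 ± 0.444 CPM (log2 difference -0.43, SE 0.09, edgeR FDR 0.0421). In the Gq list (18 genes, 17 tested, median -0.10) edgeR called 0 genes and 0 were at an unadjusted p under 0.05, while without control 1 it called 1 higher and 2 lower. The smallest p there was that of the protein kinase C isoform Prkce, at 89.7 ± 19.5 and 72.7 ± 2.86 CPM (log2 difference -0.30, SE 0.14, edgeR FDR 0.333). Control 1 was its highest sample at 112 CPM, with controls 2 and 3 at 80.8 and 76.2 CPM, and without control 1 its log2 difference was -0.11 (FDR 0.203).

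The desensitisation list, which holds receptor kinases, arrestins, RGS proteins, RAMP partner proteins and genes of receptor endocytosis and recycling (20 listed, 19 tested, median -0.05), held 2 calls, both higher, and without control 1 it held 4 calls higher and 2 lower. Rgs9, which speeds the shut-off of Gi-class G proteins, rose from 50.9 ± 5.64 to 80.4 ± 4.87 CPM (SD, n = 3; log2 difference 0.66, SE 0.10, edgeR FDR 0.0145). Ramp2, a partner protein of class B receptors such as the adrenomedullin receptor, rose from 5.07 ± 1.16 to 9.32 ± 0.338 CPM (log2 difference 0.88, SE 0.18, edgeR FDR 0.0396). Among the genes of the ligands (16 listed, 10 tested, median -0.05), 2 were called, both higher, and 2 were higher and 2 lower in the fit without control 1. Gcg, the precursor gene of both glucagon and GLP-1, rose from 175, 195 and 212 CPM to 377, 397 and 409 CPM, a log2 difference of 1.02 (SE 0.10, edgeR FDR 0.00199). Glp1r mRNA stood lowest in the same epinephrine samples, without a call (edgeR FDR 0.126), and no link between Gcg and Glp1r was tested. Lpl, the lipase that releases fatty acids from lipoproteins, rose from 70.2 ± 3.00 to 92.5 ± 3.36 CPM (log2 difference 0.40, SE 0.08, edgeR FDR 0.0413).

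**Figure D4:**
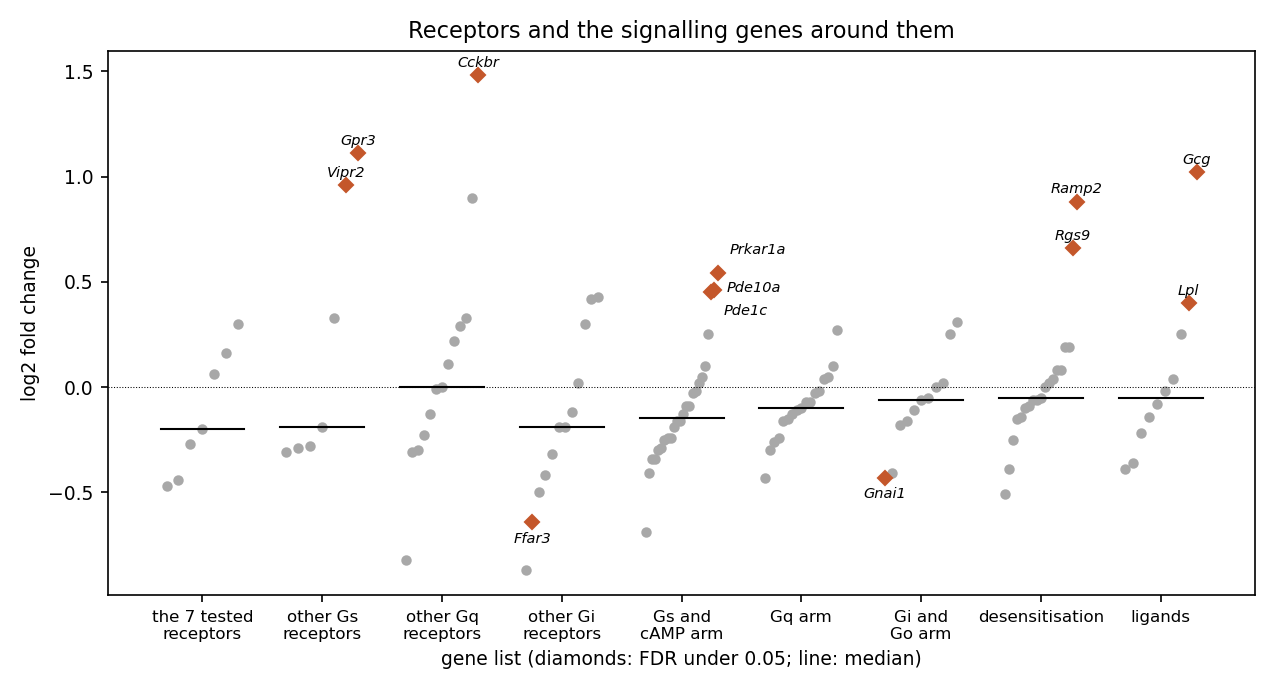
Log2 difference of chronic epinephrine from control for every tested gene of the receptor, signalling and ligand lists, 1 point per gene, with the median of each list as a bar and genes at an FDR under 0.05 marked. Of 113 genes outside the 10 receptors, 10 were called higher and 2 lower, and the list medians lie between -0.20 and -0.00.

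Markers of cell types were read beside these values, since in bulk RNA fewer cells of a type and less RNA per cell cannot be told apart. Of 16 beta-cell genes 3 were called lower and 0 higher, against 0.612% and 2.02% of all tested genes. The 3 were Ins1, Slc2a2 and Ucn3, with log2 differences of -0.50, -0.76 and -0.74 (edgeR FDR 0.0152, 0.00434 and 0.00868). In all, 13 of the 16 had a lower mean (50.5% of all tested genes did), with a median log2 difference of -0.22. The groups did not overlap for 9 that were lower and 1 that was higher, against 13.0% and 14.3% of all tested genes. The summed beta-cell level was 45039, 60991 and 64288 CPM in controls 1, 2 and 3 and 57077 to 59296 CPM after epinephrine, with Ins2 and Iapp as its largest terms. By gene, control 1 was the highest control for 8 of the 16, among them Pdx1 (696 CPM, against 556 and 584), Nkx6-1 (411, against 253 and 243) and Abcc8 (885, against 536 and 536), and the lowest for 6, among them Ins2, Iapp and G6pc2. Of 8 alpha-cell genes 1 rose, Gcg itself, with summed levels of 865 to 987 CPM in controls and 978 to 1024 after epinephrine. The amino acid transporter Slc7a2 was the largest term (779, 694 and 599 CPM in controls and 536, 560 and 523 after epinephrine). Without it the sums were 208 to 266 and 443 to 478 CPM. Most of that was Gcg, at 175, 195 and 212 CPM in controls and 377, 397 and 409 CPM after epinephrine. Gc stood at 26.8, 37.0 and 50.3 CPM in controls and 61.1, 61.9 and 63.6 CPM after epinephrine (edgeR FDR 0.103). Of 5 delta-cell genes 1 rose, Pdyn, with sums of 1121 to 1288 and 2059 to 2281 CPM. Nearly all of that was Pdyn, and without it the sums were 9.65 to 12.3 and 7.34 to 8.96 CPM. Sst, the somatostatin gene that defines delta cells, stood at 0.259, 0.743 and 1.00 CPM in controls and 0.830, 0.785 and 0.793 CPM after epinephrine (FDR 0.811). Of 32 hepatocyte genes 12 were tested and 2 fell, Serpina1c and Serpina1d. Without Ttr, which beta cells also express, the summed hepatocyte level was 65.1, 179 and 362 CPM in controls 1, 2 and 3 and 48.2 to 57.0 CPM after epinephrine. Of 6 leukocyte genes 1 was tested and rose, Cd68, a lysosomal protein of macrophages, from 0.539 ± 0.186 to 2.83 ± 0.638 CPM (SD, n = 3; log2 difference 2.39, SE 0.33, edgeR FDR 0.00907). The leukocyte sum was 0.514 to 1.36 CPM in controls and 2.19 to 3.80 after epinephrine, most of it Cd68 in the latter, while the defining marker Ptprc stayed at or below 0.119 CPM in every sample. Fibroblast genes summed to 1.66 to 22.6 and 1.79 to 19.5 CPM, neuron genes to 637 to 703 and 649 to 689 CPM, and PP-cell and epsilon-cell genes to 0.188 to 0.343 and 0.119 to 0.841 CPM. None of 10 exocrine genes passed the filter, and 5 were at 0 in all samples. The part of these marker levels in the receptor differences was not tested.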

How the data were processed

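The authors deposited 1 table that gives, per gene and sample, an expected count and FPKM. Expected counts are per gene with no normalization between samples, and the deposited FPKM values are scaled by transcript length and sample total. Submitters' processing notes name GRCm38, and the aligner, the counter and strand use are not given in the sources used here. Of the expected counts 8.34% were not whole, and all were rounded. Genes kept by filterByExpr (12747 of 22298) were normalized by TMM and tested in R 4.3.3 with edgeR 4.0.16 (quasi-likelihood), 3 epinephrine against 3 control samples, with no other term. Standard errors were taken from the F statistic and intervals are at 95%. For single receptors a two-sided exact permutation test was added. Scripts were tested on simulated data. Positions are those of GENCODE vM21.

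Alternatives were DESeq2 1.42.0, limma 3.58.1 on log2 FPKM (1 or 0.1 added), other scalings and filters, a 2-fold threshold, replicate number as a block, leaving out each sample and, chosen after seeing the data, an offset for GC content and length of transcripts. The 10 receptors and all lists were chosen with earlier results of these data known. Named genes were the 10 receptors, every listed signalling gene at an FDR under 0.05 and, in a list with none, the gene of smallest p. All other genes named, the fatty acid receptors Ffar2 and Ffar4 and the cell type markers among them, were picked with their values known.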

Additional observations from a re-analysis of the deposited data

How the results depend on the processing

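The direction of Glp1r, Ffar1 and Galr1 held under all 16 alternatives, while their call did not. Leaving out 1 sample moved the log2 difference of Glp1r between -0.53 and -0.28, of Ffar1 between -0.54 and -0.34 and of Galr1 between 0.26 and 0.32, and edgeR then called 0 to 3 receptors, 3 of them without control 1. Over all alternatives the FDR ranged from 9.19e-05 to 0.415 for Glp1r, 7.10e-06 to 0.330 for Ffar1 and 0.00253 to 0.423 for Galr1. DESeq2 called 2 receptors (Glp1r at -0.45, Ffar1 at -0.48), 8 of the other receptors (4 by edgeR) and 729 genes in all (335 by edgeR). The offset for GC content and length of transcripts called 3 receptors (-0.37, -0.43 and 0.28), 11 other receptors, 14 signalling, desensitisation and ligand genes (8 without it) and 1331 genes. With a 2-fold threshold in the reported edgeR fit, calls went from 4 to 2 among other receptors, from 8 to 1 among signalling, desensitisation and ligand genes and from 335 to 92 in all. The test of limma on log2 FPKM called 4 signalling, desensitisation and ligand genes with either value added. Sstr3 turned to -0.03 in both limma fits. Leaving out 1 sample gave 0 to 14 calls among other receptors, 1 to 23 among signalling, desensitisation and ligand genes and 47 to 2798 in the table, each highest without control 1. Apart from the construction of each alternative, the cause was not tested.

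With replicate number as a block, 2 signalling, desensitisation and ligand genes and 178 genes in all were called. Among the 7 receptors tested in that fit, no call changed. Ffar3 then stood at an FDR of 0.0544, so 3 of the other receptors were called in place of 4. The labels do not say what a number shares, deviations of same-numbered samples correlated at 0.0257, 0.112 and -0.0601, and 3 of 6 samples correlated best with their own number, so the numbers were not read as a pairing.

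Of the named genes outside the 10 receptors, the call of Gcg held in all 16 alternatives, that of Cckbr in 15, Vipr2 in 13, Ffar3 and Rgs9 in 12, Prkar1a in 11, Pde1c in 10, Gpr3 in 9, Ramp2 in 8, Gnai1 and Pde10a in 7 and Lpl in 6. Leaving out any 1 sample other than control 1 ended the calls of Ramp2, Pde1c, Lpl, Pde10a, Gpr3 and Gnai1. Leaving out any epinephrine sample ended those of Vipr2, Ffar3, Rgs9 and Prkar1a, the last pair also without control 2, and Cckbr lost its call without epinephrine sample 2. Gpr119, Gcgr and Sstr2, with at most 11 counts in a sample, did not pass the filter of the reported fit. No fit that kept them called any of them.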

Other observations

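Ratios of expected counts of 2 receptors within a sample need no scaling between samples. The pairs were chosen after their values were seen, each of the first 2 from a receptor with a lower and one with a higher mean after epinephrine, so their separation follows from that choice and is given as a description. Glp1r exceeded Gipr 12.7, 8.41 and 8.67 times in controls 1, 2 and 3 and 6.38, 6.30 and 6.78 times after epinephrine. Ffar1 exceeded Galr1 14.1, 11.8 and 10.9 times in controls and 6.97, 7.47 and 7.21 times after epinephrine. The ratio of Ffar1 to Glp1r was 0.513, 0.526 and 0.550 in controls and 0.528, 0.517 and 0.504 after epinephrine.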
